A study of Homo sapiens with 4 samples.

Results

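Upper glycolysis turns glucose into triose phosphates through 5 enzyme steps, and 10 genes that encode its enzymes and their isoforms were examined: HK1, HK2 and HKDC1 for the hexokinase step, GPI for the isomerase step, PFKL, PFKM and PFKP for the phosphofructokinase step, ALDOA and ALDOC for the aldolase step, and TPI1 for the triose phosphate isomerase step. They were taken by gene symbol from the 12912 genes of the count table, and all 10 had an entry with 1 Ensembl identifier each. RNA had been sequenced from 786-O, an established human line of clear cell renal carcinoma without a working VHL protein, in 2 libraries of the VHL-null subline (786-O-Ctrl, the controls) and 2 of the subline in which VHL was restored by retroviral expression of an HA-tagged form (786-O-VHL, the restored subline). The labels name the triple-reporter line for all 4 libraries, so both groups also carry the GFP, luciferase and thymidine kinase reporter, and all were grown in RPMI1640 with serum. Each group is 1 subline, and nothing in the labels says that the libraries of a group came from separate cultures, so p-values measure the spread between these libraries, which may be technical.

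Hexokinases trap glucose in the cell as glucose-6-phosphate, GPI converts it to fructose-6-phosphate, phosphofructokinase commits the sugar to glycolysis by a second phosphorylation, aldolase splits the product, and TPI1 interconverts the resulting trioses. VHL marks the α subunits of the hypoxia-inducible factors (HIF) for degradation, and many glycolysis genes are known HIF targets. In cells without VHL the factors persist in the presence of oxygen, and 786-O is known to make HIF2α but not HIF1α. The comparison of both sublines therefore asks how the mRNAs of this part of glycolysis differ when VHL is present.

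The deposited counts summed to between 2807779 and 22141263 per library, and 786-O-VHL replicate 1 was the shallowest by far, with the deepest library 7.89 times as deep. Both 786-O-Ctrl columns carry the same replicate number and are told apart here as the deeper and the shallower library. VHL itself rose from 43.4 ± 0.741 to 171 ± 10.5 CPM (SD, n = 2 each), where CPM are counts scaled to the size of the library after edgeR's TMM correction. All 7 markers of renal epithelium or of this line (PAX8, PAX2, KRT8, KRT18, VIM, EPAS1 and CDH16) were present, and their summed level was lower in the restored subline (2425 and 2437 CPM) than in the controls (3241 and 3244 CPM). VIM weighs most in this difference, with 1669 and 1699 CPM in the controls and 751 and 709 CPM after restoration. EPAS1 went the other way, from 319 and 330 CPM to 813 and 856 CPM, so the sum does not describe each marker. At FDR < 0.05, 4 of the 7 were lower, among them VIM (log2 fold change -1.21) and PAX8 (-0.90), and EPAS1 (1.37) and CDH16 (1.75) were higher. Of all tested genes, 31.9% were lower and 32.6% higher at that threshold. Of 12 markers of leukocytes, endothelium and fibroblasts, 5 had an entry, and their sum was between 11.6 and 11.7 CPM in the controls and between 15.1 and 16.6 CPM in the restored subline. The leukocyte marker CD14 and the endothelial marker PECAM1 stayed at or below 1.02 CPM in all 4 libraries. Of the fibroblast markers, PDGFRB rose from 3.28 and 4.25 CPM to 5.77 and 6.12 CPM (edgeR FDR = 0.0147), while LUM, at a log2 fold change of 0.93, missed the threshold (edgeR FDR = 0.0522). COL1A1, at 6.36 and 5.72 CPM in the controls and 7.12 and 6.53 CPM after restoration, was not called (edgeR FDR = 0.599). COL1A2 and DCN had no entry. The part of these marker differences in the results was not tested.

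HKDC1 mRNA was 5.0-fold higher in 786-O-VHL, whereas 8 of the 10 genes were lower there: TPI1, ALDOA, HK1, GPI, HK2, PFKP, PFKL and the scarce ALDOC. PFKM was slightly higher. With edgeR's quasi-likelihood test over 12335 genes and Benjamini-Hochberg adjustment (FDR), all 10 genes were tested, 8 were lower and 2 higher at FDR < 0.05, against a background of 31.9% of all tested genes lower, 32.6% higher and 64.5% in either direction. The libraries of the groups did not overlap for any of the 10, which was so for 39.2% of all genes downward and 40.8% upward. The median log2 fold change (786-O-VHL over 786-O-Ctrl) was -0.70 over the 10 genes and 0.02 over all tested genes. At |fold change| > 2 with FDR < 0.01 only TPI1, ALDOC and ALDOA were lower and only HKDC1 was higher among the 10, where 7.13% of all genes were lower and 9.33% higher. ALDOA and HK1 lay close to this fold threshold, at log2 fold changes of -1.01 and -0.98, and alternatives put each on both sides of it. These ranged from -1.23 to -0.87 for ALDOA and from -1.11 to -0.84 for HK1. ALDOC had a count of 0 in 786-O-VHL replicate 1 and an adjusted p of 0.0555 with DESeq2. HKDC1 was also the only one of the 10 past the study's threshold of |fold change| > 4 with FDR < 0.01, which 2.92% of genes passed upward and 1.54% downward. The study used DESeq2 for its calls, whereas these calls and percentages are from edgeR. CPM are shares of the RNA in a library, and a lower level in each cell cannot be told apart from fewer expressing cells.

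**Figure D1:**
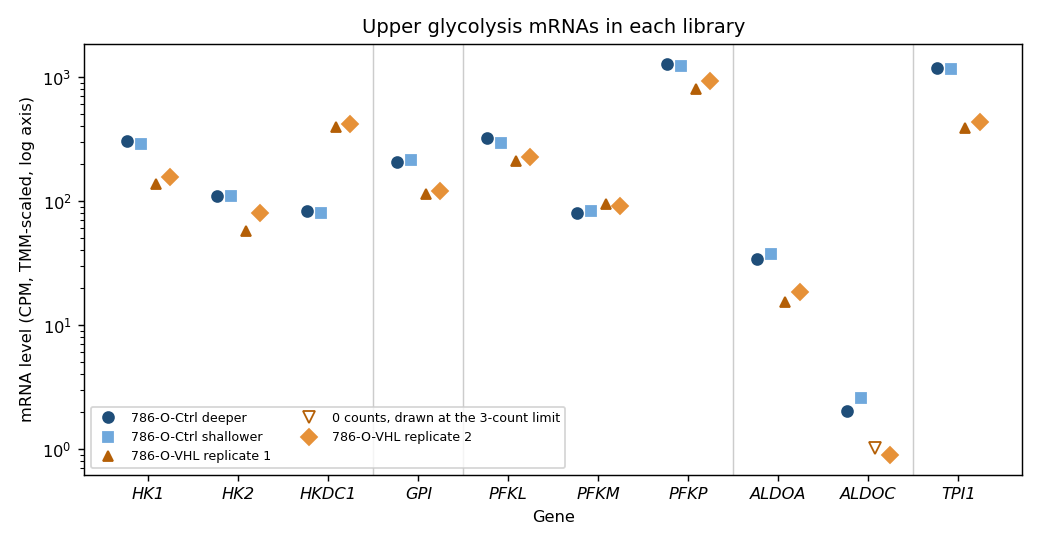
Level of each of the 10 mRNAs in each library, in TMM-scaled CPM on a log axis, with 1 point per library and gray lines between the enzyme steps. HKDC1 lies above its 786-O-Ctrl levels in both 786-O-VHL libraries, and the open triangle marks the ALDOC count of 0 in 786-O-VHL replicate 1, drawn at the 1.02 CPM that 3 counts correspond to there.

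Since the hypoxia-inducible factors bind the core motif ACGTG or GCGTG, the promoter windows of the 10 genes in RefSeq (GRCh38.p14, 250 bases before to 50 bases after each annotated start) were searched for it on both strands. All 10 genes matched the table by symbol, with 29 windows that partly overlap each other, and 16 of the 29 held at least 1 match. Over all 35116 windows, 48.4% held one, so a match is common at this length. Each of the 10 genes had a match in at least 1 of its windows, HKDC1 and PFKM included, where this was so for 52.4% of all genes, and genes with more annotated starts have more windows. The motif overlaps the E-box CACGTG, which other factors bind and which reads as a match on both strands. Windows of 4 genes are shown, in lower case with the matches in capitals and on the strand of the gene: HKDC1, the gene that rose most, with a single match that begins at base 24 of the transcript; TPI1, the abundant gene that fell most; and HK2 and ALDOC, whose windows held the most matches.
HKDC1 (chr10:69220082-69220381, plus strand): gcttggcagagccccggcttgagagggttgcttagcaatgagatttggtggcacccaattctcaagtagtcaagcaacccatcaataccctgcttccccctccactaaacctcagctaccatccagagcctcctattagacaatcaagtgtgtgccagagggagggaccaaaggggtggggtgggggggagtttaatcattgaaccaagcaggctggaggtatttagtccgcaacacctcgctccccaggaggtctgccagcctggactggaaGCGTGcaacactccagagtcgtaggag
TPI1 (chr12:6867855-6868154, plus strand): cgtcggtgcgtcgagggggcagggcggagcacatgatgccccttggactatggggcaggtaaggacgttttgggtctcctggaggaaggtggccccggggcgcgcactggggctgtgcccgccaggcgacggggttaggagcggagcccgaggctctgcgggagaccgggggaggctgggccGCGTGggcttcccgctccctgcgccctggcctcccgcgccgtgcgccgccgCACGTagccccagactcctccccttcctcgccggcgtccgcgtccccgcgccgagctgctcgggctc
HK2 (chr2:74834920-74835219, plus strand): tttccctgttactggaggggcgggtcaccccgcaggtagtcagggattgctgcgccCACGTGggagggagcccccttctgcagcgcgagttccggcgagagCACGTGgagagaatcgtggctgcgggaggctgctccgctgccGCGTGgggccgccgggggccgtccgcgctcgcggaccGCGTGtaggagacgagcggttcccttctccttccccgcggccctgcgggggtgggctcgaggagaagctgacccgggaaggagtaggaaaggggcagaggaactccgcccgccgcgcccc
ALDOC (chr17:28576846-28577145, minus strand): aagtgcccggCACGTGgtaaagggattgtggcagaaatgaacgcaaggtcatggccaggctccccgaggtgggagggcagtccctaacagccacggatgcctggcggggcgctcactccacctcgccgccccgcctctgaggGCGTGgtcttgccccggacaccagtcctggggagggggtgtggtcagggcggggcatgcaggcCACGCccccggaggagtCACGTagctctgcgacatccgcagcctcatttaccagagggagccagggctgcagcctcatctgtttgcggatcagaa
The HK2 window held 6 matches, 4 of them within 2 E-boxes, and 0.923% of all windows held as many. The ALDOC window held 5 matches, 2 of them within 1 E-box. HK1, which fell, held a match in 2 of its 7 windows, and PFKM, which did not fall, also in 2 of 7. TPI1 held a match in only 1 of its 2 windows, the one shown, and none in the other. PFKP held one in 2 of 4 windows, ALDOA in 3 of 3, and GPI and PFKL each in their single window. These matches are letters in the sequence, and binding was not measured.

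The hexokinase step changed its composition. HKDC1, a hexokinase family member whose gene lies head to tail with HK1, had 82.4 CPM in the deeper control library, 79.8 CPM in the shallower, 395 CPM in restored replicate 1 and 416 CPM in restored replicate 2. The groups were far apart and the replicates close, and the log2 fold change was 2.33 (standard error 0.0657, edgeR FDR = 2.4e-21), above that of 97.7% of all tested genes. HK1, the hexokinase of most tissues, which docks on mitochondria, had 304 CPM in the deeper and 288 CPM in the shallower control library, against 138 CPM and 157 CPM in restored replicates 1 and 2. Its mean after restoration was 49.8% of the control mean (log2 fold change -0.98, standard error 0.0690, edgeR FDR = 7.14e-13). HK2, the inducible hexokinase of muscle and many tumors, had 110.03 CPM and 109.3 CPM in the deeper and shallower controls, 57.0 CPM in restored replicate 1 and 80.1 CPM in restored replicate 2. HK2 was lower in both restored libraries, but these differed from each other by 0.49 on the log2 scale, the widest replicate gap among the genes with counts in every library. Its log2 fold change was -0.57 (standard error 0.0845, edgeR FDR = 1.15e-06), and -0.68 with DESeq2 (adjusted p = 0.0143). It was -0.95 without 786-O-VHL replicate 2 and -0.46 without 786-O-VHL replicate 1.

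The neighboring genes HKDC1 and HK1 moved in opposite directions. HKDC1 (ENSG00000156510.13) lies on the plus strand of chromosome 10 of GRCh37 from 70980088 to 71027308, and HK1 (ENSG00000156515.23) begins 2431 bases further on and runs from 71029740 to 71161640. No annotated gene on their strand shares exon bases with either. HK2 (ENSG00000159399.9) is on chromosome 2 from 75061254 to 75120486.

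To compare isoforms with each other, counts were divided by the merged exon length of each gene (GENCODE 44 lifted to GRCh37), and the share of each isoform in the total of its step was taken in each library, which does not depend on how libraries are scaled. HK1 held 53.7% and 52.8% of the hexokinase step in the deeper and shallower controls and 16.3% and 16.9% in restored replicates 1 and 2. HKDC1 held 23.7% and 23.9% in the controls, and 75.9% and 73.0% after restoration. The share of HK2 was 22.6% and 23.3% in the controls, and 7.82% and 10.03% after restoration. The leading hexokinase mRNA was therefore HK1 in both 786-O-Ctrl libraries and HKDC1 in both 786-O-VHL libraries, and the share of HKDC1 rose from 23.8% ± 0.113 to 74.5% ± 2.05 (SD, n = 2 each), a difference of 50.7 points. Per length, HKDC1 stood at 0.441 and 0.452 times HK1 in the controls, and at 4.67 and 4.31 times HK1 after restoration. With 2 libraries against 2, a two-sided exact permutation test cannot give a p below 0.33, and it gave p = 0.33 for the share of each hexokinase. With the length of the longest coding transcript in place of merged exons, the mean share of HKDC1 went from 19.2% to 69.4%, and with counts not divided by length from 16.7% to 65.3%.

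**Figure D2:**
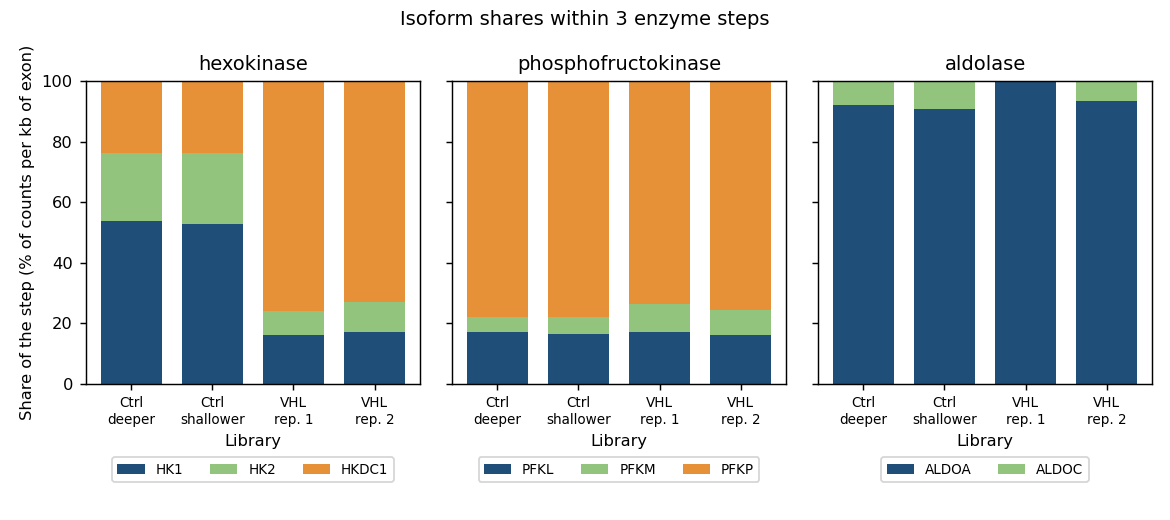
Share of each isoform in the hexokinase, phosphofructokinase and aldolase steps in each library, as a percentage of the step's counts per kb of merged exon. The largest hexokinase segment is HK1 in the 786-O-Ctrl libraries and HKDC1 in the 786-O-VHL libraries, while PFKP holds between 73.7% and 77.9% of the phosphofructokinase step in all 4.

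The summed hexokinase mRNA rose although HK1 and HK2 both fell. It stood at 82.4 and 79.2 CPM per kb of exon in the deeper and shallower controls, and at 123 and 135 CPM per kb in restored replicates 1 and 2, so the mean was 1.60 times that of the controls. The groups did not overlap (two-sided exact permutation p = 0.33, the lowest possible), and the size depends on the length used, with a log2 ratio of 0.68 for merged exons and 0.47 for the longest coding transcript. For the other 4 steps every restored library was below every control library, each with the same exact permutation p of 0.33. The mean after restoration was 56.0% of the control mean for GPI, 71.7% for phosphofructokinase, 44.6% for aldolase and 35.3% for TPI1. The aldolase sum is mostly ALDOA, whose level is uncertain, as another gene on its strand shares many of its exon bases. Its log2 ratio was -1.16, and -1.13 with ALDOA counts divided by its unshared exon bases. With the counts of the overlapping gene added to ALDOA it was -1.10.

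**Figure D3:**
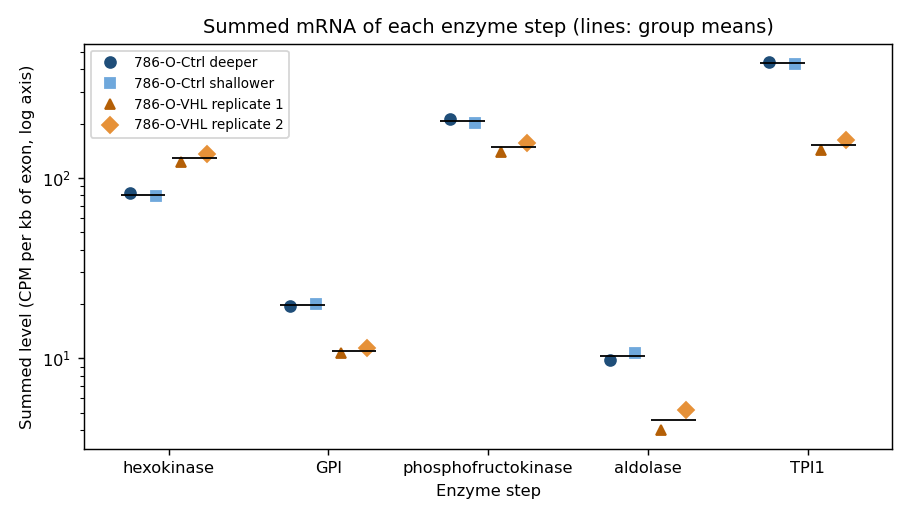
Summed mRNA of each enzyme step in each library, in TMM-scaled CPM per kb of merged exon on a log axis, with lines at the group means. The hexokinase sum is higher in both 786-O-VHL libraries, at 123 and 135 against 82.4 and 79.2 in 786-O-Ctrl, and the sums of the other 4 steps are lower. The aldolase sum is mostly ALDOA, whose level is uncertain.

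GPI, the isomerase that leads from glucose-6-phosphate to fructose-6-phosphate and the only gene of its step, had 207 CPM in the deeper and 215 CPM in the shallower control library, and 115 CPM and 121 CPM in restored replicates 1 and 2. The groups were well separated, and the log2 fold change was -0.82 (standard error 0.0663, edgeR FDR = 1.21e-11). GPI (ENSG00000105220.17) lies on chromosome 19 of GRCh37 from 34850385 to 34893318, and another annotated gene on its strand shares 5.07% of its exon bases.

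In the phosphofructokinase step both abundant isoforms fell by similar amounts and the order of the isoforms stayed as it was. PFKP, the platelet type, had 1281 CPM in the deeper and 1217 CPM in the shallower control library, and 798 CPM and 921 CPM in restored replicates 1 and 2. Every restored library was below every control library (log2 fold change -0.53, standard error 0.0653, edgeR FDR = 4.81e-08). PFKL, the liver type, had 321 CPM and 293 CPM in the deeper and shallower controls, and 211 CPM and 226 CPM in restored replicates 1 and 2, also without overlap. Its log2 fold change was -0.48 (standard error 0.0663, edgeR FDR = 3.98e-07), and the difference between the changes of PFKL and PFKP was 0.05 on the log2 scale with a standard error of 0.0931, taking their errors as independent. PFKM, the muscle type, had 79.3 CPM and 83.3 CPM in the deeper and shallower controls, and 94.0 CPM and 91.0 CPM in restored replicates 1 and 2. Its level was slightly higher in both restored libraries (log2 fold change 0.18, standard error 0.0696, edgeR FDR = 0.0267). This call was lost in 5 of 11 alternatives, among them DESeq2 (adjusted p = 0.234), the libraries thinned to equal depth (edgeR FDR = 0.713, log2 fold change 0.05), and the fits without the deeper 786-O-Ctrl library (edgeR FDR = 0.321), without the shallower one (edgeR FDR = 0.11) and without 786-O-VHL replicate 2 (edgeR FDR = 0.0922).

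PFKP held 77.8% and 77.9% of the step per length in the deeper and shallower controls, and 73.7% and 75.8% in restored replicates 1 and 2. PFKL held between 16.2% and 17.0% in all 4 libraries, and its groups overlapped (two-sided exact permutation p = 1). PFKM held 5.17% and 5.72% in the controls, and 9.31% and 8.03% after restoration, a difference of 3.23 points (two-sided exact permutation p = 0.33). PFKM was thus the isoform whose share was larger after restoration, and its change exceeded that of PFKP by 0.71 on the log2 scale (standard error 0.0955, errors taken as independent). PFKP (ENSG00000067057.17) lies on chromosome 10 of GRCh37 from 3108525 to 3179910, PFKL (ENSG00000141959.17) on chromosome 21 from 45719934 to 45747259, and PFKM (ENSG00000152556.17) on chromosome 12 from 48498922 to 48540187. A gene on the opposite strand covers 7.12% of the PFKM exon bases, and such overlap is 13.6% for ALDOA, 11.3% for ALDOC and 3.39% for HKDC1. Whether the counting used strand is not stated in the sources.

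In the aldolase step both isoforms were low in these counts. ALDOA, the aldolase of muscle and of most other tissues, had 723 counts in the deeper control library, 562 in the shallower, 45 in restored replicate 1 and 311 in restored replicate 2, which correspond to 34.3, 37.4, 15.3 and 18.5 CPM. It was lower in both restored libraries (log2 fold change -1.01, standard error 0.116, edgeR FDR = 1.53e-08). ALDOC, the brain type, had 43 counts in the deeper control library and 39 in the shallower, against 0 in restored replicate 1 and 15 in restored replicate 2. Its libraries did not overlap, and its log2 fold change was -1.61 (standard error 0.472, edgeR FDR = 0.00398), with an adjusted p of 0.0555 in DESeq2. With libraries thinned to equal depth, or with at least 10 counts required in every library, ALDOC did not pass the filter and was not tested. The count of 0 allows up to 1.02 CPM (3 counts, counting error only), and the level after restoration comes from 15 counts in 1 library. If that library is left out, the only restored library has no ALDOC count, and no fold change is given.

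The level of ALDOA is uncertain. ALDOA (ENSG00000149925.20) lies on the plus strand of chromosome 16 of GRCh37 from 30075485 to 30081778, and the gene AC093512.2 (ENSG00000285043.1) covers it on the same strand from 30064444 to 30081735. Of the 1640 bases of the longest coding ALDOA transcript, 1472 (89.8%) lie in exons of AC093512.2, and of all merged ALDOA exon bases 42.8% do. AC093512.2 had still fewer counts than ALDOA, 58 and 48 in the deeper and shallower controls, and 9 and 24 in restored replicates 1 and 2 (log2 fold change -0.77, standard error 0.365, edgeR FDR = 0.0656). How reads that lie in both genes were counted is not stated in the sources, and its part in the low ALDOA level was not tested. The share of ALDOC in the step, 8.02% and 9.23% in the controls, and 0% and 6.60% after restoration, has ALDOA as its main denominator and carries the same uncertainty. The 0% rests on the count of 0, and 3 counts would give a share of 8.90% in that library, which lies within the control values. ALDOC (ENSG00000109107.14) is on the minus strand of chromosome 17 from 26900133 to 26903966.

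TPI1, which interconverts the triose phosphates that aldolase releases, fell most among the genes with counts in every library. It had 1178 CPM in the deeper and 1149.6 CPM in the shallower control library, and 386 CPM and 435 CPM in restored replicates 1 and 2. The groups were far apart, and the log2 fold change was -1.49 (standard error 0.0649, edgeR FDR = 1.84e-17), lower than that of all but 3.37% of the tested genes. TPI1 (ENSG00000111669.15) lies on chromosome 12 of GRCh37 from 6976283 to 6980112, with 0.519% of its exon bases shared with a gene on the opposite strand.

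**Figure D4:**
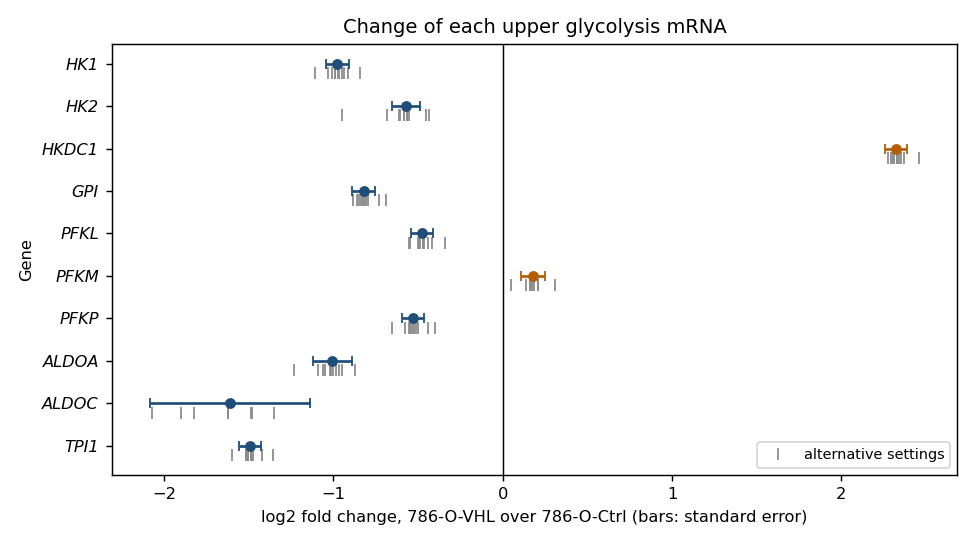
Log2 fold change of each mRNA in 786-O-VHL over 786-O-Ctrl, with bars of 1 standard error from the edgeR fit, and small ticks for the alternative settings (1 ALDOC value, from the fit in which the restored group has no ALDOC count, lies off the axis). HKDC1 at 2.33 stands apart from the genes that fell, which lie between -1.61 and -0.48.

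Ordered by level per kb of merged exon, the 10 genes ran TPI1, PFKP, HK1, PFKL, GPI, HKDC1, HK2, PFKM, ALDOA and ALDOC in 786-O-Ctrl, where only GPI (19.7 ± 0.503 CPM per kb) and HKDC1 (19.2 ± 0.439 CPM per kb) overlapped as neighbors. In 786-O-VHL the order was TPI1, PFKP, HKDC1, PFKL, HK1, PFKM, HK2, GPI, ALDOA and ALDOC, and HK2 overlapped with both PFKM and GPI. HKDC1 moved to the third place, at 96.0 ± 3.5 CPM per kb (SD, n = 2), next to PFKP at 111 ± 11.2 CPM per kb (SD, n = 2). TPI1 stood at 431 ± 7.37 CPM per kb in the controls, and at 152 ± 12.8 CPM per kb after restoration (SD, n = 2 each). The place of ALDOA carries the uncertainty of its level given above. The order depends on the length used. Per kb of the longest coding transcript, PFKP and TPI1 overlapped at the head of the order in 786-O-VHL, with PFKP first. Their levels there were 263 ± 26.7 and 233 ± 19.7 CPM per kb. GPI stood above HK2 by that measure in 786-O-VHL, and above PFKM by the mean only, as their libraries overlapped. Without division by length PFKP was first in both groups. HKDC1 stood in the third place in 786-O-VHL by the mean of each of these 3 measures. Without division by length it overlapped there with TPI1, at 405 ± 14.8 against 411 ± 34.7 CPM (SD, n = 2 each).

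Of a list of 32 other genes of glucose entry, lower glycolysis, lactate handling and the control of phosphofructokinase, 24 were tested, and 14 were lower and 8 higher in 786-O-VHL at FDR < 0.05, against the background of 31.9% and 32.6%. Their median log2 fold change was -0.56. The 3 that fell most were PFKFB4, whose product makes the phosphofructokinase activator fructose-2,6-bisphosphate, the glucose transporter gene SLC2A1, and PGK1, the first ATP-yielding enzyme of lower glycolysis, with log2 fold changes of -2.10, -1.68 and -1.34. The 3 that rose most were TIGAR, whose product removes that activator, the testis-type lactate dehydrogenase gene LDHC and the muscle enolase gene ENO3, with log2 fold changes of 1.59, 1.38 and 1.26. Mean levels in 786-O-VHL were 13.3 CPM for TIGAR, 2.35 CPM for LDHC and 10.7 CPM for ENO3, against 8.46 CPM for PFKFB4, 424 CPM for SLC2A1 and 348 CPM for PGK1.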

How the data were processed

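RNA of each subline had been sequenced in 2 libraries. The table that the authors deposited holds raw counts for 12912 genes, not normalized, made from reads aligned to hg19. Per the labels, CASAVA and STAR were among the submitters' tools. Which counting tool, strand setting and annotation were applied is not given in the sources used here. Groups were taken from the sample titles. The members and gene lists were chosen with earlier results of these data known.

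Counts were filtered with filterByExpr (minimum count of 10, 12335 genes kept), scaled by TMM and tested with edgeR 4.0.16 in R 4.3.3, with group as the single term, followed by Benjamini-Hochberg adjustment. Standard errors are those implied by the F statistic. With 2 libraries per group the test rests on a spread shared between genes (biological coefficient of variation 4.31%). Replicates differed by more than sampling noise (chi-square per degree of freedom 2.25 and 2.76). For a repeated symbol, the identifier with most counts was used. Lengths, positions and overlaps came from GENCODE 44 on GRCh37. These identifiers can differ in version from those used for counting. The fits were tested on simulated data. Named were all 10 genes, AC093512.2 and, of the pathway list, the 3 largest changes per direction past FDR < 0.05. The genes that share exon bases with GPI and PFKP on their strand have no entry in the counts and were not named. Alternatives were DESeq2 1.42.0, limma-voom (limma 3.58.1), other scalings, filters and lengths, thinning, and leaving out each library. No protein sequences were used.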

Additional observations from a re-analysis of the deposited data

How the results depend on the processing

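Over the 10 genes, 102 of 108 fold changes recomputed under alternatives kept their direction and their side of FDR < 0.05, and the other 6 (5 of PFKM, 1 of ALDOC) kept their direction. The 102 include the ALDOC fit without 786-O-VHL replicate 2, where the restored group has no ALDOC count, so that its size has no meaning. ALDOC was not tested with thinned libraries or with at least 10 counts required in every library. The number called lower was 7 or 8 under the alternatives, except at |fold change| > 2 with FDR < 0.01, where it was 3. The number called higher was 1, HKDC1 alone, with DESeq2, with thinned libraries and at that threshold, and between 1 and 2 with a library left out. Of the other pathway genes, 4 were higher with DESeq2, and between 4 and 8 with a library left out.

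With the longest coding transcript as length, the share differences of HK1 and HK2 were -40.9 and -9.28 points, and the log2 ratio of summed hexokinase was 0.47. Without length scaling that of HK2 was -11.6 points. Scaling by library totals alone raised the median of all genes by 0.13 and gave log2 ratios of the sums of 0.81 for hexokinase, -0.70 for GPI, -0.35 for phosphofructokinase and -1.37 for TPI1. With a library left out, the share differences ranged from -37.1 to -36.2 points for HK1, -15.1 to -12.9 for HK2, 49.2 to 52.1 for HKDC1, -0.46 to 0.34 for PFKL, 2.59 to 3.86 for PFKM, -4.20 to -2.13 for PFKP and -8.63 to -2.02 for ALDOC, the last moved by the 0 count of 786-O-VHL replicate 1. No paired analysis was possible because both 786-O-Ctrl columns carry the same replicate number. The ALDOA length and addition alternatives for step sums, the ALDOA unshared length and the other lengths for the order of levels were chosen after seeing the data.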
